A study of Mus musculus
Rattus norvegicus and Mus musculus and Rattus norvegicus with 95 samples.

Results

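The smooth muscle contractile genes described here are Tagln, Myl9, Tpm1, Tpm2, Cnn1 and Acta2, a list chosen by name for its role in the contractile filaments of smooth muscle. Of the 6 listed genes, 5 had a row among the 13926 genes of the deposited tables, and Acta2 was not analysed here. RNA sequencing covered allodiploid embryonic stem cells (AdESCs), hybrid lines in which each nucleus combines 1 rat and 1 mouse haploid set, together with cells derived from them and with rat and mouse embryonic stem cells (ESCs). Values are FPKM, fragments scaled to transcript length and library size, so levels of different genes are compared per length.

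Among the differentiated single cells (63 in all, pooled by type and line into 7 samples), 20 were somatic testis cells and 4 were lung cells from a rat chimaera of line RM2-1. A mouse chimaera of line RM1-1 gave 4 somatic testis cells and 8 neurons, and a mouse chimaera of line MR1-1 gave 10 fibroblasts. Embryoid bodies (EBs), aggregates in which stem cells differentiate in culture, gave 5 cells of RM1-1 and 12 of MR2-1. The AdESC single cells (24 in 4 samples) came from MR1-1 (6 cells), MR2-1 (8), RM1-1 (4) and RM2-1 (6). The bulk libraries, 1 per line, came from these 4 AdESC lines, the rat ESC lines DA25 and DA53, and the mouse ESC lines F145 and F146. Stem cells are labelled as being in G0/G1, all derived cells carry the hybrid genome of their AdESC line, and each differentiated sample stands for 1 line only. Separate cultures or animals are not named for the libraries, and a p-value therefore covers the spread among these samples alone. That spread mixes line, cell type and technical differences, which cannot be told apart.

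Smooth muscle contracts when calcium activates a kinase that phosphorylates the regulatory light chain of myosin, after which myosin pulls on actin filaments. Myl9 encodes that light chain, Acta2 the smooth muscle form of alpha-actin, and Tpm1 and Tpm2 encode tropomyosins, which lie along actin filaments. Tagln (transgelin, or SM22 alpha) and Cnn1 (calponin) encode actin-binding proteins of differentiated smooth muscle, and calponin restrains the ATPase of myosin. Tropomyosin genes also serve striated muscle and, through other splice forms, non-muscle cells, and cultured fibroblasts can switch these genes on.

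On the mouse build GRCm38 (mm10), Tagln lies on chromosome 9 (45929619 to 45936058, minus strand), as do Tpm1 (67022590 to 67049406, minus strand) and Cnn1 (22099216 to 22109630, plus strand). Myl9 is on chromosome 2 (156775420 to 156781658, plus strand) and Tpm2 on chromosome 4 (43514711 to 43523765, minus strand). GENCODE lists 16 coding transcripts for Tpm1 and 4 for Tpm2, and the single FPKM of each gene does not part muscle from non-muscle forms. On the opposite strand Tagln overlaps Pcsk7 by 108 bases and the predicted gene Gm48529 by 3627 bases, and the counting is not stated to use strand.

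Summed FPKM ran from 213045 to 411555 per cell and from 312695 to 377664 per bulk library, with 3444 to 6246 and 7835 to 8770 genes at 1 FPKM or more, and read depth is unknown. Cells labelled testis RM1-1 went against their label: all 4 had the growth cone gene Gap43 at 77.7 FPKM or more and the glial glutamate transporter gene Slc1a3 at 79.2 FPKM or more. Their neuron markers averaged 2.21 and their glial markers 1.62 on the log2(FPKM + 1) scale, close to the 2.58 and 2.20 of the RM1-1 neurons, against 0.58 and 0.09 in testis RM2-1. In the lung cells the lung epithelial markers averaged 0.02 on that scale, and the surfactant gene Sftpc and the club cell gene Scgb1a1 were listed at 0. Calls in the 5 genes in testis are given below with and without testis RM1-1, as are counts of some of the other gene lists.

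All 5 genes were abundant in every somatic testis cell of RM2-1. Tagln ran from 1553 to 6669 FPKM over the 20 cells with a median of 3597, and its mean of 3939 ± 1388 (SD over cells) was second among all 13926 genes of that sample. Tpm1 ran from 1010 to 5001 FPKM (median 1916, mean 2225), placing it seventh. The light chain gene Myl9 lay between 312.7 and 2196 FPKM (median 829.5, mean 995.1). Every one of the 20 cells was therefore high in all 3 genes. Tpm2 ran from 236.2 to 847 FPKM (median 376.8), and Cnn1, the most uneven of the group, from 18.3 to 545.8 FPKM (median 134.6). The coefficient of variation between cells was 0.34 for Tpm2, 0.35 for Tagln, 0.47 for Tpm1, 0.48 for Myl9 and 0.82 for Cnn1.

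Nearly all cells of testis RM2-1 had the same gene highest. Tagln was the highest of the 5 in 19 of the 20 cells, with Tpm1 highest in the other 1, and Tpm1 exceeded Tpm2 in all 20. Each gene reached 10 FPKM in 20 of 20 cells (100%, exact Clopper-Pearson 95% interval 83.2 to 100%, which covers counting of cells only), and in 14 cells all 5 reached 100 FPKM. Among these cells the genes were loosely related: Pearson's r of log2(FPKM + 1) over the 20 cells, a description in cells that share their library preparation, ran from 0.14 for Myl9 with Cnn1 to 0.66 for Tpm1 with Tpm2 and for Tpm1 with Myl9.

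The other testis sample was unlike it. In the 4 cells labelled testis RM1-1, Tagln was at 2.24, 94.6, 18.4 and 30.4 FPKM, Tpm1 at 135.1, 66.7, 296.6 and 139.6 FPKM, and Myl9 at 31.1, 85.6, 7.94 and 16.7 FPKM. Tpm2 was listed at 0 in 3 of them and at 2.17 FPKM in the other, and Cnn1 did not exceed 6.12 FPKM. Every cell of testis RM2-1 was above every cell of testis RM1-1 for each of the 5 genes. With 1 sample of each line that contrast has no replicate check.

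**Figure D1:**
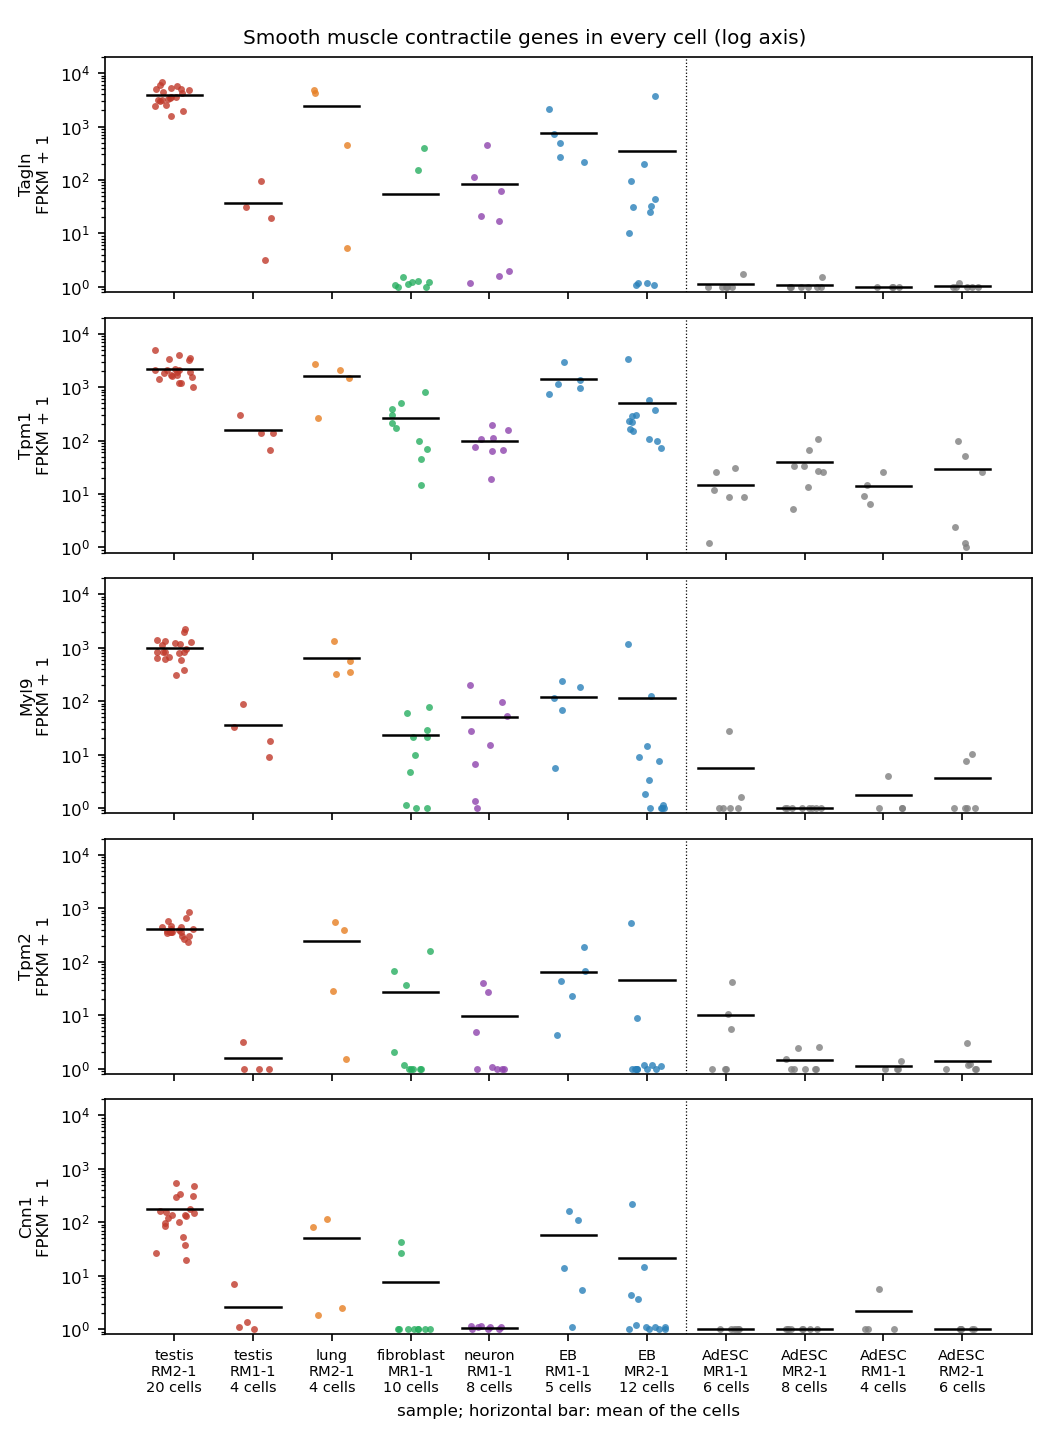
FPKM + 1 on a log axis for Tagln, Tpm1, Myl9, Tpm2 and Cnn1 in each of the 87 cells, with 1 point per cell, a bar at the mean of each sample, and the differentiated samples left of the dotted line and AdESCs right of it. Testis RM2-1 is high for all 5 genes and widest for Cnn1, the lung, fibroblast, neuron and EB MR2-1 cells spread widely for Tagln, and no AdESC cell reaches 1 FPKM of Tagln.

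In the lung sample of RM2-1 the 4 cells fell apart. Tagln was at 4201, 4902, 452.2 and 4.21 FPKM, Tpm2 at 394.3, 559.3, 26.7 and 0.49 FPKM, and Cnn1 at 80.3, 112.7, 1.49 and 0.80 FPKM, the cells being in the same order each time. For these 3 genes the first 2 cells lay within the range of testis RM2-1 cells, and the last 2 lay below it. Tpm1 (2087, 2660, 260.1 and 1510 FPKM) and Myl9 (352.5, 1340, 314.8 and 569.9 FPKM) were at 260.1 FPKM or more in all 4. Cyp11a1, the enzyme that opens steroid synthesis, was listed at 0 in both cells with high Tagln and stood at 2242 and 1868 FPKM in the other 2. Star, which carries cholesterol into mitochondria, was at 0, 0.11, 391.5 and 17.95 FPKM in that order, and the part of cell identity in the split was not tested.

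Neurons of RM1-1 had almost no calponin RNA and variable levels of the other genes. Over the 8 cells Tagln ran from 0.19 to 446.8 FPKM with a median of 17.8, Myl9 from 0 to 200.8 FPKM with a median of 20.5, and Tpm1 from 18.4 to 190.1 FPKM with a median of 89.4. Cnn1 did not exceed 0.16 FPKM, and 0 of 8 cells at 1 FPKM allows a share of up to 37.5%. The 3 cells highest in Tagln (446.8, 113.3 and 62.4 FPKM) had Slc1a3 at 543.9, 782 and 726.6 FPKM and the neuronal tubulin gene Tubb3 at no more than 0.31 FPKM. In the 4 cells with Tubb3 between 98.6 and 502.2 FPKM, Tagln was between 0.19 and 19.9 FPKM, and the eighth cell, with Slc1a3 at 282.5 FPKM, had 0.99 FPKM. Tpm1 was the highest of the 5 genes in 6 of the 8 cells and Tagln in the other 2.

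Tropomyosin 1 led in the fibroblasts of MR1-1, where Tagln was mostly near 0. Tpm1 ran from 13.8 to 820.5 FPKM over the 10 cells (median 189.8) and was the highest of the 5 genes in all 10. Tagln reached 10 FPKM in 2 of 10 cells (20%, exact interval 2.52 to 55.6%), at 152.4 and 390.9 FPKM, and did not exceed 0.52 FPKM in the other 8. Those 2 cells had the epithelial adhesion gene Epcam at 309.9 and 67.7 FPKM and the collagen gene Col1a1 at 0.35 and 2.76 FPKM. Epcam also stood between 45.5 and 270.5 FPKM in 4 of the 8 fibroblast cells with little or no Tagln. In the 3 cells with Col1a1 of 27.5 FPKM or more, and with the matrix proteoglycan gene Lum at 155.9 to 915.8 FPKM, Tagln was at 0.12, 0.52 and 0 FPKM. Fibroblast markers averaged 1.87 on the log2(FPKM + 1) scale in this sample, below the 3.01 of testis RM2-1.

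The 2 EB samples differed from each other, with 1 sample per line and so no replicate check, and line and culture cannot be told apart. In RM1-1 Tagln was at 262.5, 736.5, 483.6, 2100 and 214.4 FPKM and Tpm1 at 970.4, 1383, 754.9, 2888 and 1125 FPKM, so both were high in all 5 cells, and in 3 cells all 5 genes reached 10 FPKM. In MR2-1 a single cell of 12 carried most of the signal, with Tagln at 3708, Tpm1 at 3383, Myl9 at 1192, Tpm2 at 533.3 and Cnn1 at 220 FPKM. That cell held 89.7% of the summed Tagln of its sample, 88.6% of Myl9, 56.8% of Tpm1, 98.5% of Tpm2 and 91.6% of Cnn1. The highest Tagln among the other 11 cells was 196.2 FPKM. In the single cell Col1a1 stood at 470.5 FPKM, against at most 9.97 FPKM in the other 11, while Epcam and the slow-twitch and cardiac troponin gene Tnnc1 were listed at 0. The neuronal tubulin gene Tubb3 was at 173.5 FPKM in that cell, against at most 0.08 FPKM in the other 11.

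Tpm1 was the highest of the 5 genes in all 5 EB cells of RM1-1 and in 11 of 12 of MR2-1, against 1 of 20 in testis RM2-1. Tnnc1 averaged 60.1 FPKM in EB RM1-1 and 164.8 FPKM in EB MR2-1, against 1.197 FPKM in testis RM2-1 (means over cells). Over single cells Tnnc1 ran from 0 to 265.3 FPKM in EB RM1-1 (median 14.95), where 1 cell of 5 carried most of the mean, and from 0 to 695.6 FPKM in EB MR2-1 (median 124.6). Of 6 tested striated muscle genes 2 were higher and 2 lower by at least 2 on the log2(FPKM + 1) scale in EB RM1-1 than in AdESCs of that line, and 3 were higher and 1 lower in EB MR2-1, with 1 sample on each side and no test. Cardiac actin (Actc1) ran from 0 to 517.8 FPKM in EB RM1-1 and was listed at 0 in all 12 cells of EB MR2-1. The cardiac troponin gene Tnnt2 ran from 0 to 42.25 FPKM in EB RM1-1 and from 0 to 34.66 FPKM in EB MR2-1. The heart genes Myh6 and Nkx2-5 were listed at 0 in every EB cell, and which type of filament the Tpm1 RNA serves was not tested.

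**Figure D2:**
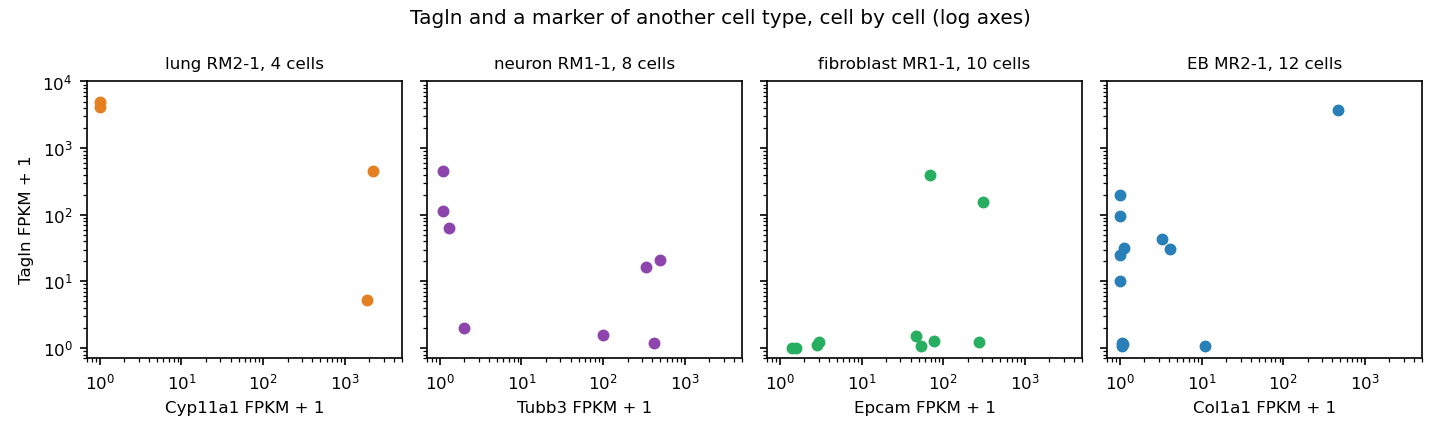
FPKM + 1 of Tagln (vertical, log axis) against a marker of another cell type (horizontal, log axis), 1 point per cell, in lung RM2-1, neuron RM1-1, fibroblast MR1-1 and EB MR2-1. Lung cells with Cyp11a1 at 1868 and 2242 FPKM have the lower Tagln, Tagln is highest in neuron-labelled cells with Tubb3 near 0, both fibroblast-labelled cells with Tagln carry Epcam, and the EB cell at 3708 FPKM of Tagln has Col1a1 at 470.5 FPKM; these markers were picked after their values were seen.

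Undifferentiated cells of the 4 AdESC lines had almost none of this RNA except Tpm1. Tagln was listed at 0 in 21 of the 24 cells and reached at most 0.75 FPKM, and 0 of 24 cells at 1 FPKM allows a share of up to 12.5%. Tpm1 ran from 0 to 106.6 FPKM with a median of 19.2, and 15 of the 24 cells reached 10 FPKM. Sample means were 0 to 4.51 FPKM for Myl9, 0.09 to 9.20 FPKM for Tpm2 and 0 to 1.16 FPKM for Cnn1.

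Whether these genes rise on differentiation was tested over samples, each the mean FPKM of its cells. All 5 were higher in the 7 differentiated samples than in the 4 AdESC samples, against a background of 7.37% of the 8421 tested genes called higher (limma, adjusted p under 0.05 over all genes). Tested genes had to average 1 FPKM across the 11 samples, which Tagln and Cnn1 did only through the differentiated samples, so the count of 5 is no support by itself. Their median log2 difference was 4.57, beside 0.02 over all genes tested.

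Tagln averaged 1087 ± 1509 FPKM in differentiated samples and 0.05 ± 0.05 FPKM in AdESC samples (SD, n = 7 and 4), a log2(FPKM + 1) difference of 8.29 ± 1.07 (SE, limma adjusted p = 8.93e-05). Sample means of the differentiated group ran from 36.4 to 3939 FPKM, and the groups did not overlap. Myl9 averaged 282.5 ± 382.5 FPKM in differentiated samples and 1.97 ± 2.02 FPKM in AdESC samples (5.63 ± 0.90, limma adjusted p = 0.000603). Tpm1 averaged 899.3 ± 848.8 FPKM in differentiated samples and 23.3 ± 12.2 FPKM in AdESC samples (4.57 ± 0.74, limma adjusted p = 0.000681). For these 3 genes every differentiated sample stood above every AdESC sample. The lowest of the 7 were testis RM1-1 for Tagln, fibroblasts for Myl9 (21.7 FPKM) and neurons for Tpm1 (98.2 FPKM).

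Tpm2 and Cnn1 passed more narrowly. Tpm2 averaged 114.8 ± 156.4 FPKM in differentiated samples and 2.54 ± 4.45 FPKM in AdESC samples (4.13 ± 1.19, limma adjusted p = 0.0285), and testis RM1-1 and the neurons lay inside the AdESC range. Cnn1 averaged 44.5 ± 62.7 FPKM in differentiated samples and 0.29 ± 0.58 FPKM in AdESC samples (3.70 ± 1.10, limma adjusted p = 0.0338), with the neurons inside the AdESC range. The Tpm2 call ended without AdESC MR2-1, RM1-1 or RM2-1 (limma adjusted p = 0.0859, 0.0986 and 0.0865), and the Cnn1 call without any 1 of the AdESC samples, EB RM1-1, testis RM2-1 or lung RM2-1 (limma adjusted p = 0.0522 to 0.0907). Both calls also ended without the filter on low values and with the mean of log2 values over cells, where Tpm2 and Cnn1 differed by 2.82 and 2.45 (limma adjusted p = 0.123 and 0.0992). With the median over cells only Myl9 and Tpm1 were called, and Tagln, at 6.56, just missed the threshold (limma adjusted p = 0.0548).

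**Figure D3:**
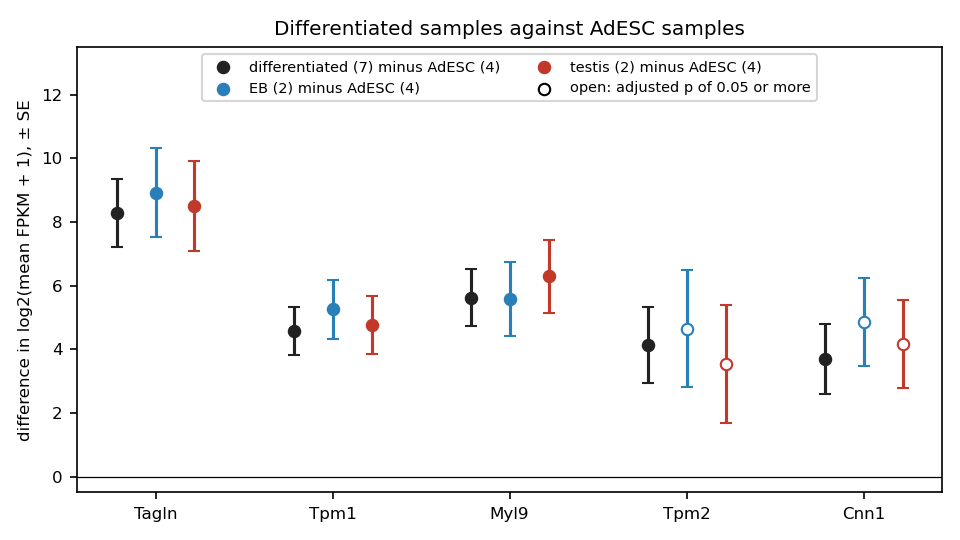
Difference in log2(mean FPKM + 1) ± SE for each gene, for 7 differentiated samples, 2 EB samples and 2 testis samples, each against the same 4 AdESC samples, which the 3 sets of points share. Filled points passed an adjusted p of 0.05, and Tagln is furthest from 0 in each, at 8.29, 8.93 and 8.51.

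Only EBs and testis had cells from 2 lines, and both were set against the same 4 AdESC samples. In EBs 3 of the 5 genes were higher than in AdESCs, beside 2.40% of all tested genes. The filter on low values was the same, and Tagln passed it only through differentiated samples, so this count is no support by itself. Tagln averaged 759.3 and 344.7 FPKM in the EB samples of RM1-1 and MR2-1, against 0 to 0.13 FPKM in AdESC samples (8.93 ± 1.41, limma adjusted p = 0.00901). Tpm1 averaged 1424 and 496.8 FPKM in EBs, against 13.0 to 37.9 FPKM in AdESCs (5.26 ± 0.92, limma adjusted p = 0.0136), and Myl9 119.4 and 112.1 FPKM, against 0 to 4.51 FPKM (5.58 ± 1.15, limma adjusted p = 0.0263). The EB means of Tpm2 (63.5 and 45.1 FPKM) and Cnn1 (56.9 and 20.0 FPKM) lay above all AdESC means but did not pass the test (limma adjusted p = 0.179 and 0.0764).

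The EB calls rested on both lines. Without EB RM1-1 none of the 5 genes was called and without EB MR2-1 only Tpm1 was, and with the median over cells, which sets aside the single MR2-1 cell, none was. With 1 EB sample left, that sample was assumed to vary like the testis and AdESC groups, which then supplied the spread. With the mean of log2 values over cells only Tpm1 was called. Myl9 also lost its call without any 1 of the AdESC samples (limma adjusted p = 0.0518 to 0.0763), and without the filter on low values no gene was called. With cell line as a block, which pairs each EB sample with its own AdESC line, Tpm1 lost its call (limma adjusted p = 0.0620) and Tagln and Myl9 kept theirs. Removing the testis samples, which share the estimate of spread, moved the count the other way. Without either 1 of them all 5 genes were called in EBs, but calls rose among all genes too. Higher in EBs were 316 of 8397 genes without testis RM2-1 and 320 of 8376 without testis RM1-1, in place of 202 of 8421.

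In testis 3 of the 5 genes were higher than in AdESCs, beside 5.93% of all tested genes. Because Tagln passed the same filter only through differentiated samples, this count is no support by itself either. Sample means in RM2-1 and RM1-1 were 3939 and 36.4 FPKM for Tagln, 995.1 and 35.3 FPKM for Myl9, and 2225 and 159.5 FPKM for Tpm1, all above the 4 AdESC means. Tagln differed by 8.51 ± 1.41 (limma adjusted p = 0.00688), Myl9 by 6.29 ± 1.15 (adjusted p = 0.0105) and Tpm1 by 4.76 ± 0.92 (adjusted p = 0.0129). Tpm2 (414.9 and 0.54 FPKM in RM2-1 and RM1-1, against 0.09 to 9.20 FPKM in AdESCs) and Cnn1 (177.1 and 1.64 FPKM, against 0 to 1.16 FPKM) did not pass (limma adjusted p = 0.237 and 0.0847). Without the cells labelled testis RM1-1 all 5 genes were called, with Tpm2 at 7.58 (limma adjusted p = 0.0158) and Cnn1 at 7.20 (adjusted p = 0.00497). Without testis RM2-1 only Tagln was called, and the Tpm2 difference turned to -0.50. In both cases the testis arm was 1 sample, assumed to vary like the EB and AdESC groups, which then supplied the spread. With the median over cells only Tpm1 was called, with Tagln at a limma adjusted p of 0.0595 and Myl9 at 0.0671. The line block ended the Tpm1 call (limma adjusted p = 0.0688), and without the filter on low values no gene was called.

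Testis and EB samples did not differ by limma in any of the 5 genes, with 0 at an unadjusted p under 0.05, in a comparison that called 0.0713% of all genes. The differences of testis minus EB ran from -1.11 ± 2.13 (Tpm2) to 0.71 ± 1.33 (Myl9), with standard errors larger than each difference. Tagln turned on which testis sample was kept. Without testis RM1-1 it was 2.94 higher in testis than in EBs (limma adjusted p = 0.0733), and without testis RM2-1 it was lower in testis and called (-3.78, limma adjusted p = 0.0370). Each of these values sets 1 testis sample against 2 EB samples, and the spread came from the EB and AdESC groups.

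Each differentiated sample was also set against the AdESC sample of its own line, with no test. Tagln and Cnn1 passed the same filter on low values only through differentiated samples. A log2(FPKM + 1) difference of at least 2 was reached by 5 of 5 genes in testis RM2-1 (background 11.3% of genes), lung RM2-1 (13.0%), EB RM1-1 (10.4%) and EB MR2-1 (9.82%). In fibroblast MR1-1 (11.7%) and neuron RM1-1 (12.8%) 4 of 5 reached it, Tpm2 and Cnn1 being the exceptions in that order, and in testis RM1-1 (13.3%) all but these 2 did. Between lung and testis of RM2-1, 0 of 5 genes differed by that much, beside 3.73% of genes higher and 6.65% lower in lung. With the mean of log2 values, which weights the 2 lung cells of low Tagln more, 3 of 5 did, Tagln, Tpm2 and Cnn1, all lower in lung. That mean also left 3 genes past the difference in EB MR2-1, where the count of 5 rests on 1 cell of 12, and 2 in fibroblasts.

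Other genes of the smooth muscle program were highest in testis and lung of RM2-1, as values without a test. Actg2, the enteric form of smooth muscle actin, averaged 439.9 FPKM in testis RM2-1 (0 to 2849 FPKM over cells, median 113.5) and 274 FPKM in lung, where 1 cell stood at 1030 FPKM. In every other sample its mean was 8.1 FPKM or less. The leiomodin gene Lmod1, a filament nucleator, averaged 17.7 FPKM in testis RM2-1 and 10.3 FPKM in lung, and desmin (Des) 34.2 and 25.7 FPKM, the second gene also averaging 3.18 to 4.87 FPKM in AdESC samples. Neither Lmod1 nor Des was above 0 in any neuron or any cell labelled testis RM1-1. The EB MR2-1 cell with all 5 genes had Actg2 at 88.6 and Lmod1 at 14.0 FPKM with Des listed at 0.

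Of 15 tested genes of that program, which leaves out the 5 genes themselves, 3 were higher in differentiated samples, with a median difference of 0.98 beside 0.02 over all genes. They were Csrp1 (3.20 ± 0.69, limma adjusted p = 0.00563), a LIM protein of actin filaments, Pdlim7 (3.49 ± 0.51, adjusted p = 0.000265), a PDZ and LIM adaptor, and Nexn (3.58 ± 0.62, adjusted p = 0.00114), an F-actin binding protein. Testis called these 3 and the smoothelin gene Smtn, and EBs called Pdlim7 and Nexn. The shares of all tested genes called higher were 7.37% in differentiated samples, 5.93% in testis and 2.40% in EBs. Without testis RM1-1, which leaves 1 testis sample, the testis comparison called 6 of the 15, Pdlim7 and Nexn and also Actg2, Des, Lmod1 and Tns1, beside 485 of 8376 genes. Nexn averaged under 1 FPKM in AdESCs, as did Smtn, so each passed the filter through other samples. The list held 24 genes, of which 19 had a row.

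**Figure D4:**
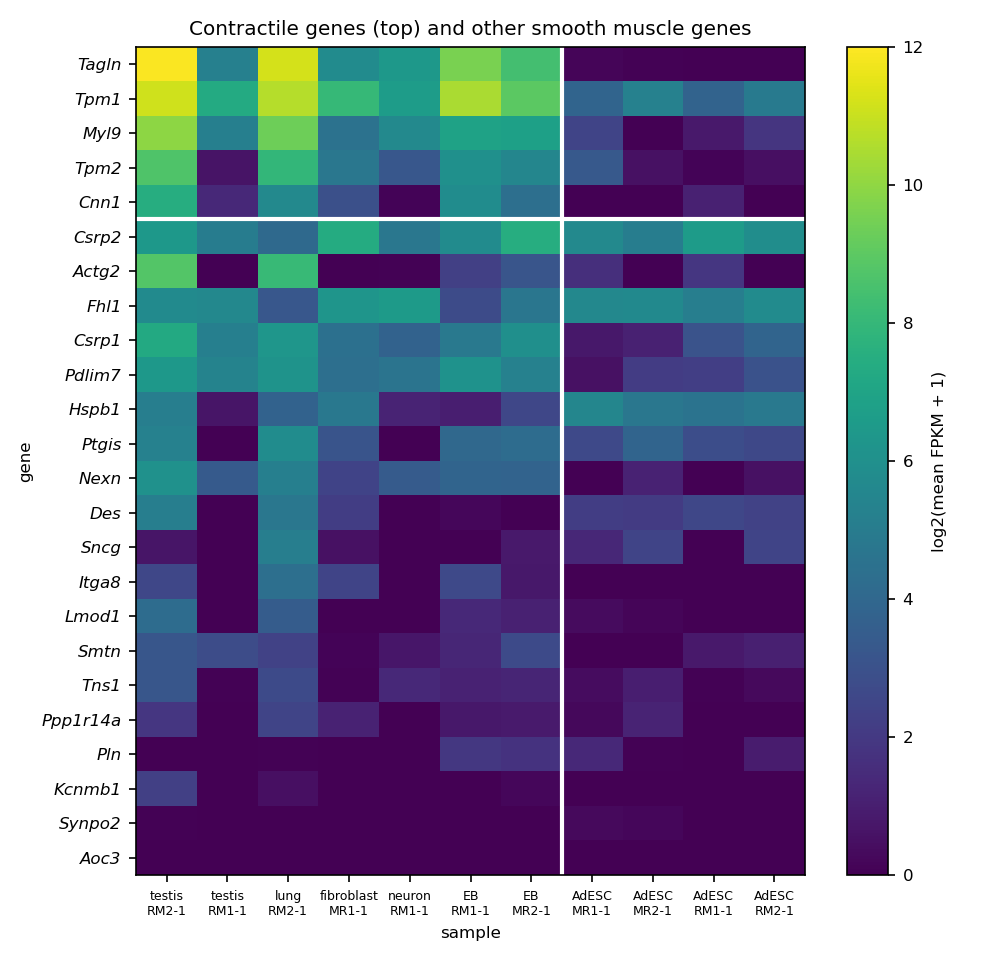
Colour shows log2(mean FPKM + 1) for the 5 contractile genes (above the white line) and 19 other smooth muscle genes, ordered by mean level, in the 7 differentiated samples (left of the vertical line) and 4 AdESC samples. Tagln and Tpm1 are bright in testis RM2-1, lung and both EB samples, while Actg2 is bright only in testis RM2-1 and lung, at 439.9 and 274 FPKM.

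Cytoskeletal relatives of the 5 genes were also tested, beside 7.37% of all genes higher in differentiated samples, 5.93% in testis and 2.40% in EBs. Of 11 tested paralogs 5 were higher in differentiated samples (median 1.50): Tpm4, a non-muscle tropomyosin (3.03 ± 0.42, limma adjusted p = 0.000169), Tagln2 (2.13 ± 0.39), the myosin light chain genes Myl6 (1.62 ± 0.34) and Myl12a (1.37 ± 0.32), and beta-actin (Actb, 0.82 ± 0.27). Tpm4 averaged 396.9 FPKM in differentiated samples and 42.4 FPKM in AdESCs, and Tagln 0 to 0.13 FPKM in the 4 AdESC samples. Of 11 tested genes of non-muscle actomyosin and adhesion 7 were higher, among them the focal adhesion genes Zyx (3.92 ± 0.54) and Tgfb1i1 (4.79 ± 0.62), the second listed at 0 in all AdESC samples. Tgfb1i1 therefore passed the filter only through the differentiated samples and had to differ. Lpp, another of the 7, averaged under 1 FPKM in AdESCs and passed it in the same way. Testis called 7 of the paralogs and 3 of the adhesion genes, and EBs called 2 and 3. Without testis RM1-1 testis called 6 of the paralogs and 8 of the adhesion genes.

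Regulators of contraction and of this program were read beside the 7.37% of all genes that were higher. Of 9 tested genes that control contraction 2 were higher, among them the calmodulin kinase gene Camk2d (2.23 ± 0.58). Of 17 tested transcription and TGF-beta genes 1 was higher, Tgfb2 (3.23 ± 0.84, limma adjusted p = 0.0172). Camk2d and Tgfb2 each averaged under 1 FPKM in AdESCs and so passed the filter only through the differentiated samples. Without testis RM1-1 the counts in the 6 remaining samples were 2 of 9 and 3 of 17. Myocd, the coactivator that drives smooth muscle genes with SRF, averaged 2.6 FPKM in testis RM2-1 and was listed at 0 in 12 of its 20 cells. Tgfb3 averaged 105 FPKM in testis RM2-1 and 95.1 FPKM in lung.

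Values of markers of other cell types are given beside the 5 genes, and their part in the result was not tested. Fibroblast markers averaged 3.01 in testis RM2-1, 1.96 in lung, 1.87 in fibroblasts, 1.43 and 1.44 in EBs of RM1-1 and MR2-1, 0.67 in testis RM1-1 and 0.53 in neurons, against 0.46 to 0.76 in AdESC samples, on the log2(FPKM + 1) scale over 13 genes. The values of testis RM1-1 and of neurons thus lay within the AdESC range. Their summed FPKM ran from 25.15 to 522.2 in differentiated samples and from 43.1 to 63.4 in AdESCs, with 0 to 4 of the 13 listed at 0 in differentiated samples and 7 to 9 in AdESCs. Of 12 tested fibroblast markers 3 were higher (Col1a2, Col3a1 and Loxl1), beside 7.37% of all tested genes. All 3 averaged under 1 FPKM in AdESCs, with Col3a1 listed at 0 in all AdESC samples. They therefore passed the filter only through the differentiated samples. With both testis samples limma called 0 of the 12 in testis. Without testis RM1-1 4 of the 12 were higher in differentiated samples, and 6 in the testis sample that remained. Mural cell markers averaged 0.11 to 0.89 in differentiated samples and 0.03 to 0.12 in AdESCs, with 0 of 3 called by limma in the 7 samples (2 at an unadjusted p under 0.05) and Mcam called in testis, with and without RM1-1. Mcam averaged under 1 FPKM in AdESCs and so passed the filter through other samples. Striated muscle markers gave 2 higher and 1 lower of 6, and of the neuron and glial markers 1 of 13 was higher and 2 were lower. The higher genes of these lists, Tnnc1, Tnnt2 and Slc1a3, also averaged under 1 FPKM in AdESCs. Sertoli cell markers averaged 0.98 to 2.63 in differentiated samples and 0.37 to 0.67 in AdESCs, and 1 of 4 tested was called in the 7 samples, Clu (4.30 ± 0.75, limma adjusted p = 0.00122). Leydig cell markers averaged 0.58 in testis RM2-1, 1.88 in lung and 0 to 0.36 in the other differentiated samples, against 0.08 to 0.16 in AdESCs. Of 3 tested Leydig markers 0 were called by limma in the 7 samples (0 at an unadjusted p under 0.05), and 3 were past the difference of 2 in lung against AdESCs of its line. In testis limma called 1 of these 3 higher, Star, and 1 of 4 Sertoli markers, beside 5.93% of all genes. Star averaged under 1 FPKM in AdESCs and so passed the filter through other samples.

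Genes most like the 5 were sought by Pearson's r between log2(FPKM + 1) of each of 3928 genes averaging 10 FPKM or more and the mean of the 5, over all 87 cells, as a description of cells that share libraries and types. The nearest were Bgn, a matrix proteoglycan gene (r = 0.89), Wisp1 (0.88), Tgfb3 (0.87), Inhba (0.85), the collagen cross-linking gene Lox (0.85), Actb (0.85), Nexn (0.84), and the collagen genes Col1a1 (0.84), Col5a2 (0.84) and Col1a2 (0.83). Bgn averaged 601.1 FPKM in testis RM2-1 and 345.3 FPKM in lung, against 0.29 FPKM or less in AdESC samples. None of the 10 was among the 10 nearest by Spearman's rank correlation. Within the 20 testis cells of RM2-1 another 10 genes were nearest, led by the myosin light chain gene Myl6 (r = 0.73), and 4 of those 10 stayed with the rank correlation.

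In bulk stem cell libraries Tpm1 was the highest of the 5 genes in each of the 8, and Tagln and Myl9 varied widely between lines. In AdESC lines MR1-1, MR2-1, RM1-1 and RM2-1 Tagln was at 2.78, 2.12, 14.6 and 12.5 FPKM, against 0.21 and 0.13 FPKM in rat lines DA25 and DA53 and 35.55 and 4.39 FPKM in mouse lines F145 and F146. Myl9 was at 2.79, 2.85, 11.4 and 6.21 FPKM in these AdESC lines, at 1.91 and 1.13 FPKM in the rat lines and at 21.5 and 2.38 FPKM in the mouse lines. For both genes RM lines were above MR lines, the rat lines were lowest, and F145 was far above F146. In bulk libraries fewer cells of a type and less RNA per cell cannot be told apart.

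Tpm1 was steadier, with 39.04, 29.2, 41.6 and 33.3 FPKM in the AdESC lines in the same order, against 14.7 and 12.9 FPKM in the rat lines and 56.4 and 47.9 FPKM in the mouse lines. The 3 groups did not overlap for it, AdESCs lying between the parental species. Tpm2 was at 4.675, 5.41, 3.41 and 7.59 FPKM in AdESCs, 3.71 and 0.60 FPKM in rat lines and 9.25 and 1.86 FPKM in mouse lines. Cnn1 stood at 3.27 FPKM in MR1-1 and 1.54 FPKM in RM1-1, at 0.76 FPKM or less in the other 6 libraries, and under the filter for the bulk tests.

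Of the 4 genes tested, none differed between AdESC and mouse ESC lines by limma, with Tpm1 at an unadjusted p under 0.05, beside 3.89% of all 8794 genes called. Tpm1 was 0.54 ± 0.24 lower on the log2 scale in AdESCs (adjusted p = 0.253), and Tagln differed by -0.99 ± 0.82 (adjusted p = 0.555). The signs of Tagln and Myl9 rested on F145, without which they were 0.39 and 0.83, and that of Tpm2 on F146, without which it was -0.75.

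Against rat ESC lines Tpm1 was higher in AdESCs, 35.8 ± 5.60 FPKM in AdESCs and 13.8 ± 1.23 FPKM in rat ESCs (1.30 ± 0.24, limma adjusted p = 0.00858), the single call of 4, where 5.79% of all genes were higher. The call ended without DA25 or DA53 (limma adjusted p = 0.0747 and 0.126). Tagln was 2.60 ± 0.82 higher and missed the threshold (limma adjusted p = 0.0792), with groups that did not overlap, and passed it without F145 or F146 (adjusted p = 0.0424 and 0.0425) or with a pseudocount of 0.1 (adjusted p = 0.0123).

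Rat ESC lines were lower than mouse ESC lines in 2 of 4 genes, where 12.6% of all genes were lower. Tagln differed by -3.59 ± 0.95 (limma adjusted p = 0.0200), a call that ended without F145, DA25 or DA53 (adjusted p = 0.140, 0.0822 and 0.0928) or without the filter (adjusted p = 0.0910), and Tpm1 by -1.84 ± 0.28 (adjusted p = 0.00119). Myl9 and Tpm2 did not pass (adjusted p = 0.130 and 0.296), although Myl9 did without F146 (adjusted p = 0.0142). Rat values need care, since genes used by most cells were at or near 0 in both rat lines: Myh9, the heavy chain of non-muscle myosin, was listed at 0 in both, against 149.9 and 76.03 FPKM in mouse lines, and Myl6 was below 0.001 FPKM, against 450 and 293.6 FPKM.

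By their mean of log2 values, fibroblast markers were also highest in F145 and lowest in the rat lines. They averaged 2.50, 3.72, 3.56 and 3.55 in AdESC lines MR1-1, MR2-1, RM1-1 and RM2-1, 1.55 and 1.52 in rat lines and 5.62 and 3.66 in mouse lines F145 and F146, on the log2(FPKM + 1) scale. Summed FPKM of the 13 markers was also highest in F145 (2509), but rat line DA53 came next at 733. It was 383.1 in DA25, 458.3 in F146 and 401.4 to 580.8 in AdESC lines. In each rat line 6 of the 13 were listed at 0. Among AdESC lines the order of the marker means differed from that of Tagln, since MR2-1 had the highest marker mean and the lowest Tagln. Col1a1 was at 8.7 FPKM in bulk MR1-1 and between 54.5 and 84.35 FPKM in the other AdESC lines, whereas its mean in single AdESC samples did not exceed 1.12 FPKM. Bulk AdESC libraries had 2.12 to 14.6 FPKM of Tagln where AdESC single-cell means were 0.13 FPKM or less. The part of other cells in the bulk values was not tested.

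**Figure D5:**
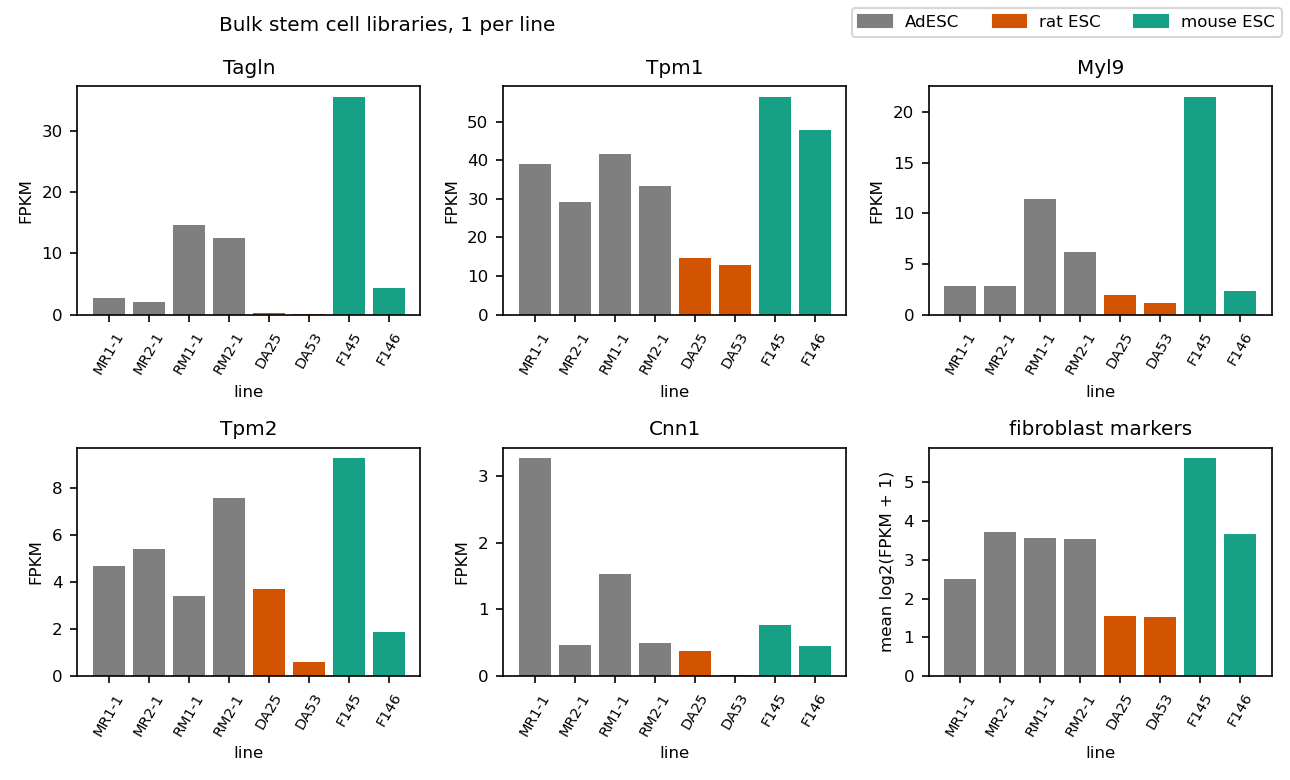
FPKM of the 5 genes in each bulk library (bars, 1 library per line, AdESC, then rat ESC, then mouse ESC) and, bottom right, the mean log2(FPKM + 1) of 13 fibroblast markers. F145 is highest for Tagln, Myl9, Tpm1 and Tpm2 and for the fibroblast markers (5.62), and both rat lines are lowest for Tagln, Tpm1 and the markers.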

How the data were processed

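The deposited values are FPKM per gene and library, made by the authors; the submitters' processing notes name FastQC 0.10.1, TopHat2 2.0.10, Cufflinks 2.1.1 and the builds mm10 and rn5. How mouse and rat values were joined in hybrid cells is not stated, and any joining step sets AdESC levels relative to either parent. Read depth is unknown, so no counting interval of expression is given. The members and gene lists (smooth muscle program, paralogs, contraction control, non-muscle actomyosin, transcription and TGF-beta, and markers of fibroblasts, mural cells, striated muscle, neurons, glia, lung epithelium, Sertoli and Leydig cells) were chosen with earlier results of these data known. All 5 genes with a row are named throughout; other genes were named if called or among the highest of their list, and those named after their values were seen are Cyp11a1, Star, Gap43, Slc1a3, Tubb3, Epcam, Lum, Col1a1, Tnnc1, Actc1, Myh6, Nkx2-5, Sftpc, Scgb1a1, Tgfb3, Myocd, Myh9 and Myl6.

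Cells are not replicates: each sample entered as the mean FPKM of its cells. Differences were fitted with limma 3.58.1 (R 4.3.3) with trend on log2(FPKM + 1), which understates the change of low genes, over genes averaging 1 FPKM or more (8794 bulk, 8421 single-cell), adjusted by Benjamini-Hochberg over all of them at 0.05. The bulk fit held all 8 libraries in 3 groups, the EB and testis fit 8 samples in 3 groups. The main fits did not pair samples by line, and cell line entered only as a block among the alternatives. Deviations of AdESC and derived samples of the same line from their group means correlated between -0.02 and 0.04 (r over 8421 genes). No 2 columns were identical. Coordinates are from GENCODE M21. The limma script was tested on simulated data with known changes. Alternatives were pseudocount 0.1, no filter, upper-quartile scaling, no trend (bulk), the mean of log2 values or the median over cells (the median was added after seeing the data), the line block and leaving out each sample.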

Additional observations from a re-analysis of the deposited data

Results flagged for a closer look

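In 2 of 15 groups of samples tested for an outlying sample, the highest stood apart from the rest of its group by Dixon's criterion, and chance gives about 1 in 20. The AdESC sample of MR1-1 averaged 9.20 FPKM of Tpm2, against 0.09 to 0.44 FPKM in the other 3 AdESC samples, and 1 of its 6 cells, at 41.2 FPKM, held 74.7% of the sum. The AdESC sample of RM1-1 averaged 1.16 FPKM of Cnn1, all of it from 1 of 4 cells at 4.62 FPKM, and Cnn1 was listed at 0 in every cell of the other 3 AdESC samples. With those 3 at 0, any value above 0 would have met the criterion, so the rate of 1 in 20 does not apply to Cnn1.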

How the results depend on the processing

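Leaving out 1 library or sample at a time, the number of the 5 genes called ranged from 3 to 5 for differentiated against AdESC samples, 0 to 5 for EBs and 1 to 5 for testis against AdESCs, and 0 to 1 for testis against EBs; of the 4 genes tested in bulk it was 0 to 0 for AdESCs against mouse ESCs, 0 to 2 for AdESCs against rat ESCs and 1 to 3 for rat against mouse ESCs. Over the same removals the calls among all genes moved too, from 791 to 1367 for differentiated against AdESC samples (1343 in the main fit). They ran from 205 to 685 for EBs (469 in the main fit) and from 521 to 1153 for testis (972 in the main fit), each against AdESCs. Without the filter on low values 3 genes were called in differentiated samples, 0 in EBs, 0 in testis and 1 in rat against mouse ESCs, where 13926 genes are adjusted for in place of 8421 or 8794. The mean of log2 values gave 3 calls in differentiated samples and 1 in EBs, and 3, 2 and 3 genes past the fold in EB MR2-1, fibroblasts and lung against testis. The median over cells gave 2, 0 and 1 calls in differentiated samples, EBs and testis, and a pseudocount of 0.1 gave 2 in AdESCs against rat ESCs. Leaving out 1 library or sample, the difference of AdESCs and mouse ESCs ran from -2.37 to 0.39 for Tagln, -1.90 to 0.83 for Myl9 and -0.75 to 1.09 for Tpm2, that of testis and AdESCs for Tpm2 from -0.50 to 7.58, and that of testis and EBs from -2.39 to 1.40 for Tpm1, -3.78 to 2.94 for Tagln, -1.68 to 3.09 for Myl9, -5.14 to 2.93 for Tpm2 and -3.72 to 2.35 for Cnn1. Testis minus EB changed sign for Tpm1 (0.019 with the median, 0.26 without EB RM1-1, 1.40 without testis RM1-1), Tagln (1.50 with the mean of log2 values, 1.38 with the median, 0.15 without EB RM1-1, 2.94 without testis RM1-1), Myl9 (-0.73 with cell line as a block, -1.68 without testis RM2-1), Tpm2 (1.43, 1.57 and, without testis RM1-1, 2.93) and Cnn1 (1.21, 1.73, 0.05 without EB RM1-1 and 2.35 without testis RM1-1), the first 2 values of Tpm2 and Cnn1 being those of the mean of log2 values and the median. The causes were not tested. The line block changed no call of the 5 genes other than that of Tpm1 in EBs and in testis, and left 5 called in differentiated samples. With that block 48 of all 8421 genes were called in EBs and 176 in testis, in place of 469 and 972. Under upper-quartile scaling the median log2 difference over all genes was 0.20 in place of -0.11 for AdESCs against rat ESCs (752 higher and 164 lower in place of 509 and 344) and -0.19 in place of 0.08 for rat against mouse ESCs (887 and 1501 in place of 1239 and 1104), and no call of the 4 genes changed. With the mean of log2 values 456 genes were higher and 1152 lower in differentiated samples, in place of 621 and 722. A sample mean over 4 to 20 cells rests on few cells, and values below 1 FPKM are compressed by the added 1.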
